A study of Mus musculus with 40 samples.

Results

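The integrated stress response genes described here are *Atf4*, *Atf5*, *Ddit3*, *Trib3*, *Asns*, *Chac1*, *Psat1*, *Phgdh*, *Mthfd2* and *Sesn2*, 10 of the 20295 genes counted in brown adipose tissue (BAT) of mice. They were taken by symbol as genes of the ATF4 pathway, by a rule that uses no measured value, although earlier results of these data were known. In the integrated stress response, kinases that sense amino acid shortage, unfolded protein, double-stranded RNA or mitochondrial and heme stress phosphorylate the translation factor eIF2alpha, which lowers protein synthesis in general while *Atf4* mRNA is translated more. ATF4 then acts on genes of amino acid synthesis and import, one-carbon metabolism and stress control, so that the mRNA of its targets is often read as the output of the pathway. In brown fat, ATF4 and its targets are known from mitochondrial stress and from thermogenic activity.

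BAT was taken from 40 male mice housed at thermoneutrality, with 5 mice in each of 8 groups. In the first cohort, C-3BO mice carried the *Gpr3* TTG allele, a *Gpr3* transgene at the *Rosa26* locus, together with *Ucp1*-Cre, which turns it on in brown and beige adipocytes from early in life, and their control littermates carried either the allele or the Cre alone. GPR3 is a Gs-coupled receptor that raises cAMP without a ligand. These mice were 13 to 19 weeks old and were fed chow or had been given a high-fat diet (HFD) for 7 days. In the second cohort, 15-week-old control littermates of mice with inducible *Gpr3* overexpression (I-3BO) received CL, an agonist of the β3-adrenergic receptor, at 1 mg/kg or saline once a day for 9 days, on chow or with 7 days of HFD. The paper collected tissue on the day following the last CL dose, so as to look at chronic and not acute effects. By their genotype the 20 injected mice did not overexpress *Gpr3*. The comparisons ask how BAT responds to a constitutively active receptor and to a receptor agonist, and whether dietary fat changes these responses. The labels number the 5 samples of each group without saying more of their origin, so p-values measure the spread between these samples.

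*Gpr3* lay between 266 and 918 CPM (normalised read counts, scaled to a common library size) in C-3BO mice and at 0.744 CPM or below in their controls, as the genotype labels require, and it was 0 to 9.15 CPM in injected mice. The 9.15 CPM belonged to replicate 3 of chow CL mice, and every other injected mouse had 1.18 CPM or less. Between 849126 and 15260516 counts per library fell on the listed genes, and 3 counts, the smallest level the depth can show, came to 0.206 to 3.01 CPM, which covers counting error only. The lowest total was that of replicate 4 of HFD saline mice, and the next lowest was 3391730. In that replicate *Phgdh*, *Trib3* and *Chac1* rest on 9, 6 and 2 counts. The 12 libraries with the lowest totals were those of every HFD mouse in the injected cohort plus the last 2 replicates of the HFD C-3BO group, and they alone had *Alb*, a liver transcript, above 1.62 CPM (62.2 to 294 CPM). Counts of *Lcn8*, an epididymis transcript, were found in all 12 of these libraries and in 0 others. The origin of these transcripts was not tested. HFD and chow in injected mice therefore cannot be told apart from this set of libraries. Replicate 5 of chow CL mice stood apart in *Ucp1*, the uncoupling protein of brown fat, with 1644 CPM against 5943 to 8986 CPM in the other 4 mice of its group, so the CL values on chow are also given without it, for the members beside each result and for the wider pathway once, together. Replicate 4 of HFD control mice also stood apart in *Ucp1*, with 9442 CPM against 2573 to 5255 CPM in the other 4 mice of its group. It was left out only in the runs without 1 mouse at a time. The summed level of 8 skeletal muscle markers differed between libraries, from 4.53 to 8245 CPM. In bulk tissue, fewer cells of a type and less RNA per cell cannot be told apart.

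The members differed widely in level. Per kilobase of counted exon, the mean over 40 libraries was 141 CPM for *Atf5*, 62.2 for *Atf4*, 59.1 for *Ddit3* and 41.7 for *Asns*. It was 7.39 CPM per kilobase for *Trib3*, 7.04 for *Sesn2*, 3.93 for *Psat1*, 3.53 for *Phgdh*, 2.14 for *Mthfd2* and 1.60 for *Chac1*. The transcription factors and *Asns* were thus the most abundant members, and the serine and one-carbon enzymes were among the least abundant. All 10 members passed the filter on low counts and were tested, although *Chac1* had as few as 2 counts in a library.

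**Figure D1:**
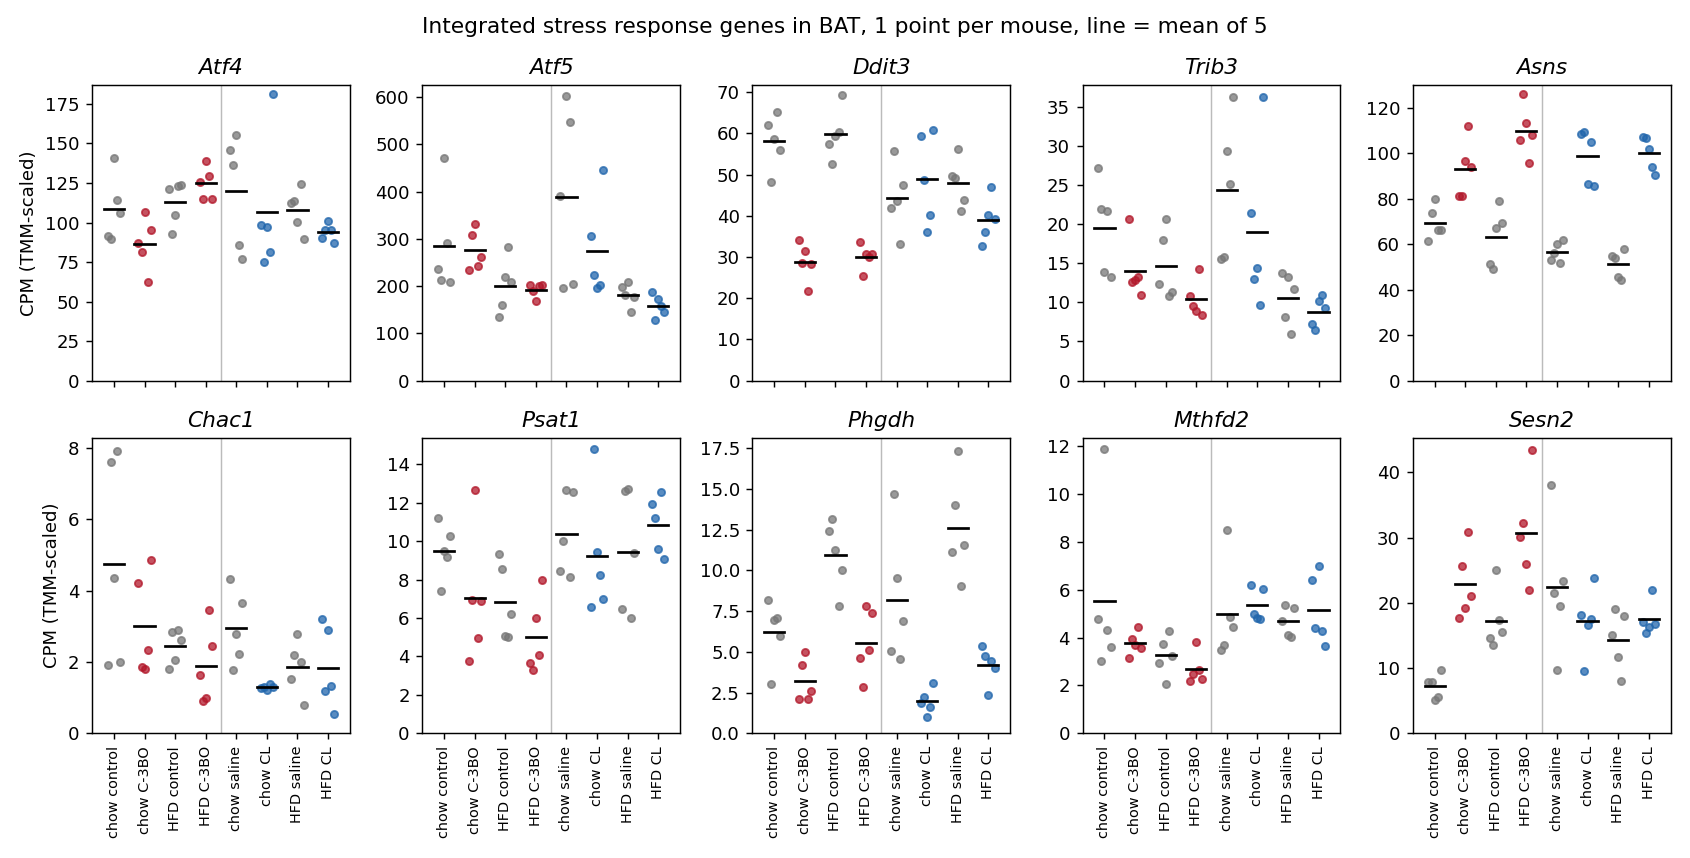
Levels of the 10 members in CPM on linear axes that start at 0, with 1 point per mouse, a line at the mean of 5 mice and the 2 cohorts parted by a grey line. In the scaling used here, *Asns* lay between 81.1 and 126 CPM in all 20 C-3BO and CL mice and between 44.1 and 79.8 CPM in all 20 control and saline mice. *Atf4* overlapped in every treatment comparison.

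The 10 genes did not move as a block in any treatment comparison. *Asns*, the enzyme that makes asparagine, rose in C-3BO mice and after CL on both diets, and *Phgdh*, the first enzyme of serine synthesis, fell in the same 4 comparisons. *Ddit3* fell and *Sesn2* rose in C-3BO mice on both diets, and neither passed the test with CL. *Chac1* fell with CL on chow. The other 5 members, which include *Atf4* itself, passed the test in none of the 4 treatment comparisons. The test was edgeR's quasi-likelihood test, with p-values adjusted by the method of Benjamini and Hochberg over 13277 genes and a call at an adjusted p under 0.05.

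With CL on chow, 3 of 10 members were called, 1 higher and 2 lower, while 15.3% of all genes tested were called in either direction. On HFD, CL gave 1 higher and 1 lower member against 23.5% of all genes. In C-3BO mice 2 members were higher and 2 lower on chow, against 31.6% of all genes, and the same counts were found on HFD, against 34.8%. When libraries were scaled by their totals alone, 1 member was higher and 6 were lower in C-3BO mice on chow, and the median of all genes there shifted by -0.20. Groups without overlap were found for 3, 2, 3 and 3 members in these comparisons, against 9.40%, 16.4%, 18.5% and 20.8% of all genes. With 2 to 4 of 10 members called in each comparison, these shares lay near those of all genes for CL on HFD and for C-3BO mice. With CL on chow the share was higher, but the call of *Chac1* there was lost in 9 of 16 alternatives. Over only 10 members no excess can be read from this count. The median log2 fold change of the 10 members was -0.28 and -0.12 with CL on chow and HFD, and -0.46 and -0.36 in C-3BO mice on chow and HFD. The median over all genes tested lay between -0.03 and -0.01 in these comparisons. The members' medians were thus below the median of all genes, although *Asns* and *Sesn2* had positive values in C-3BO mice.

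**Figure D2:**
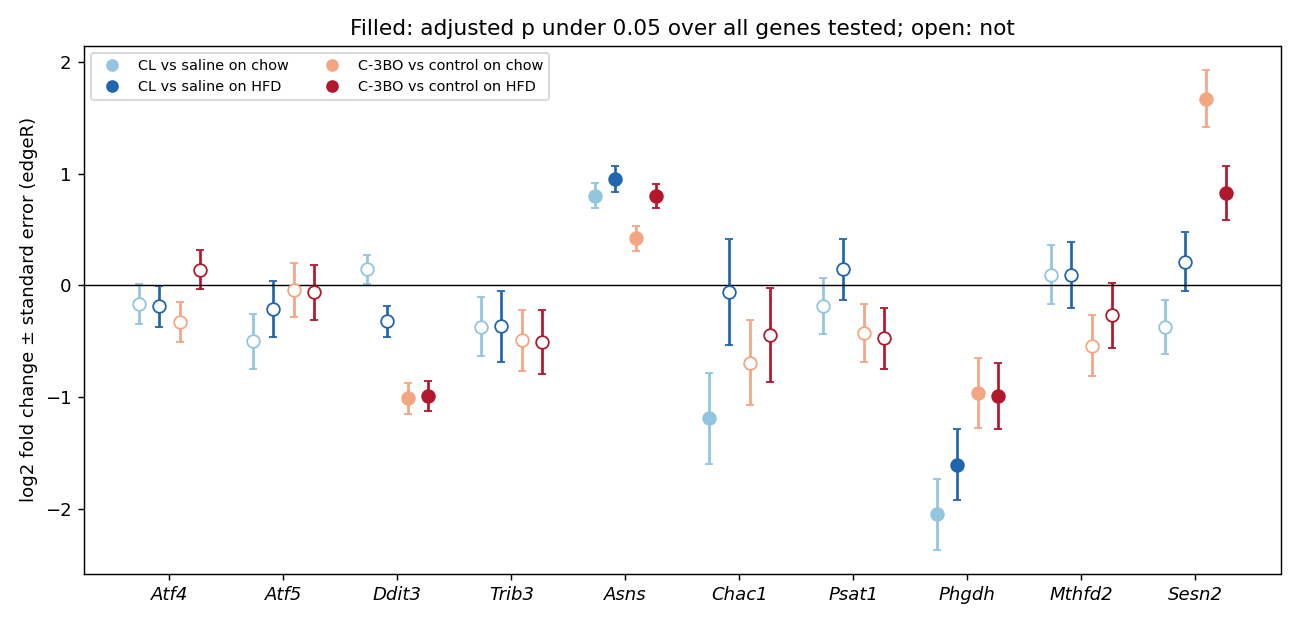
Log2 fold changes of the 10 members with their standard errors, for each treatment (CL, C-3BO) against its own untreated group on each diet. Filled points passed an adjusted p of 0.05 over 13277 genes. *Asns* has 4 filled points above 0 (0.42 to 0.95) and *Phgdh* 4 below 0 (-2.05 to -0.96), whereas *Ddit3* and *Sesn2* have filled points only for C-3BO mice.

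*Asns* (chr6:7625171-7643182, minus strand, mm9) is a textbook target of ATF4, which binds a C/EBP-ATF response element in its promoter. The windows around the matches to this element are shown because only 3 members had one within 250 bases before to 50 bases after their start. Each is written 5′ to 3′ along the gene from the mm9 genome, and capitals mark the match to TGATGNAA or its reverse complement TTNCATCA.
*Asns*, chr6:7643214-7643243: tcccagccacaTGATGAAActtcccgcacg
*Trib3*, chr2:152169764-152169793: ttagctcaggtTTACATCAgccgggcgggg
*Chac1*, chr2:119176774-119176803: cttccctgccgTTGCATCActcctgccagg
The match began 50 bases before the start of *Asns*, 14 bases after that of *Trib3* and 193 bases before that of *Chac1*. Of all 20295 promoters of the same length, 3.23% held such a match on either strand. The cAMP response element TGACGTCA was found in 0 of the 10 members and in 2.53% of all promoters. A match is a run of letters and not a measured binding site. The 3 genes with a match in this window did not share a pattern, since *Asns* rose in all 4 treatment comparisons, *Chac1* fell in 1 and *Trib3* passed the test in none. Sites outside the window or with other letters were not searched for, so the other members may hold such an element.

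*Asns* levels were 53.2, 56.4, 60.3, 51.9 and 62.1 CPM in chow saline mice and 109, 109, 86.6, 105 and 85.8 CPM in chow CL mice. All 5 CL mice lay above all saline mice. This was a log2 fold change of 0.80 with a standard error (SE) of 0.11 (edgeR adjusted p = 3.0e-06), which is 1.74-fold. On HFD the saline mice had 54.8, 53.8, 45.5, 44.1 and 57.9 CPM and the CL mice 107, 107, 102, 94.2 and 90.5 CPM, again without overlap. Without replicate 5 of chow CL mice the value on chow was 0.85. The log2 fold change with CL on HFD was 0.95 (SE 0.12, edgeR adjusted p = 1.3e-07).

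In the first cohort, *Asns* was 61.4, 73.6, 79.8, 66.5 and 66.3 CPM in chow control mice and 81.1, 81.1, 96.7, 112 and 94.1 CPM in chow C-3BO mice. The groups did not overlap, although the lowest C-3BO mouse was close to the highest control. The log2 fold change was 0.42 (SE 0.11, edgeR adjusted p = 0.0033), and this call was lost when libraries were scaled by their totals alone (0.23, adjusted p = 0.081). On HFD the control mice had 51.5, 49.2, 67.1, 78.9 and 69.5 CPM and the C-3BO mice 106, 126, 114, 96.0 and 108 CPM. Here the gap was wider, with a log2 fold change of 0.80 (SE 0.11, edgeR adjusted p = 5.3e-07) and it was 0.87 when both low-total C-3BO libraries were left out. For *Asns*, the log2 effect of C-3BO was larger on HFD by 0.38 (SE 0.16), which did not pass the adjusted test (edgeR adjusted p = 0.22). In each comparison the exact two-sided permutation test of 5 against 5 mice gave 0.00794 for *Asns*, the smallest p that it allows.

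Every one of the 20 C-3BO and CL mice had more *Asns* than every one of the 20 control and saline mice. The gap was narrow, with 81.1 CPM in the lowest treated mouse and 79.8 CPM in the highest untreated mouse. Of 13277 genes, 46 were ordered in this way, which is 0.346%. With libraries scaled by their totals alone this order of *Asns* does not hold. Replicates 1 and 2 of chow C-3BO mice then fall below replicate 3 of chow control mice. A higher call in all 4 treatment comparisons was found for 551 genes, or 4.15%, and *Asns* was the only member among them.

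*Phgdh* (chr3:98117094-98143892, minus strand) opens the pathway from a glycolytic intermediate to serine. In chow saline mice it was 5.08, 14.7, 9.57, 4.57 and 6.89 CPM and in chow CL mice 1.87, 2.25, 1.02, 1.59 and 3.11 CPM. All CL mice lay below all saline mice, with a log2 fold change of -2.05 (SE 0.32, edgeR adjusted p = 2.0e-05), and of -2.29 without replicate 5 of chow CL mice. On HFD the saline mice had 11.2, 14.0, 17.3, 9.02 and 11.6 CPM and the CL mice 5.38, 4.75, 2.33, 4.46 and 4.00 CPM. The groups were again apart, and the log2 fold change was -1.61 (SE 0.32, edgeR adjusted p = 2.8e-04).

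In chow control mice *Phgdh* was 8.18, 3.04, 6.94, 7.09 and 5.99 CPM, and in chow C-3BO mice it was 2.11, 4.17, 5.02, 2.10 and 2.58 CPM. Replicate 2 of the control mice lay within the range of the C-3BO mice, so the groups overlapped. The log2 fold change was -0.96 (SE 0.31, edgeR adjusted p = 0.017), and it missed the threshold without replicate 1 of chow control mice (-0.84, adjusted p = 0.053) or without replicate 4 of chow C-3BO mice (-0.83, adjusted p = 0.058). On HFD the control mice had 12.5, 13.2, 11.3, 7.84 and 10.0 CPM and the C-3BO mice 4.62, 2.82, 7.83, 5.09 and 7.37 CPM. The highest C-3BO mouse lay just under the lowest control, and the log2 fold change was -0.99 (SE 0.30, edgeR adjusted p = 0.0083). A lower call in all 4 treatment comparisons was found for 200 genes, or 1.51% of those tested, and *Phgdh* was the only member.

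The calls of the other serine and one-carbon enzymes differed from those of *Phgdh*, although no difference between genes was tested. *Psat1* (chr19:15979613-15999549, minus strand), which carries out the second step of serine synthesis, had group means from 5.00 ± 1.97 CPM (SD of 5 mice) in HFD C-3BO mice to 10.9 ± 1.49 CPM in HFD CL mice, and its edgeR adjusted p lay between 0.18 and 0.75 in the 4 treatment comparisons. Its log2 fold changes were -0.18 (-0.10 without replicate 5 of chow CL mice) and 0.14 with CL and -0.43 and -0.47 in C-3BO mice on chow and HFD. In C-3BO mice on chow *Psat1* passed the threshold when libraries were scaled by their totals alone (-0.64, edgeR adjusted p = 0.046) and without replicate 3 of chow C-3BO mice (-0.71, adjusted p = 0.032). *Psph*, which releases serine in the last step and belongs to the wider lists described below, moved the other way. *Psph* rose with CL by 0.99 (SE 0.19) on chow and by 1.15 (SE 0.21) on HFD on the log2 scale, and in C-3BO mice by 0.83 (SE 0.19) and 0.73 (SE 0.19), with edgeR adjusted p = 2.6e-04, 8.0e-05, 8.4e-04 and 0.0027. The first and the last enzyme of the route thus changed in opposite directions in all 4 comparisons.

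*Mthfd2* (chr6:83255698-83267598, minus strand), a mitochondrial enzyme of one-carbon metabolism, was low everywhere, with group means from 2.67 ± 0.654 CPM (SD of 5 mice) in HFD C-3BO mice to 5.52 ± 3.61 CPM in chow control mice. The high mean of the chow controls came with replicate 3 at 11.9 CPM, while the other 4 mice lay between 3.04 and 4.79 CPM. No treatment comparison was called for *Mthfd2*. Its log2 fold changes were 0.10 and 0.09 with CL and -0.54 and -0.27 in C-3BO mice on chow and HFD. Without replicate 5 of chow CL mice the first was 0.05.

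*Ddit3* (chr10:126727849-126733344, plus strand) encodes CHOP, a transcription factor that is induced downstream of ATF4 in prolonged stress. It was 62.0, 48.3, 58.6, 65.2 and 56.0 CPM in chow control mice and 34.2, 28.5, 31.5, 21.7 and 28.3 CPM in chow C-3BO mice. On HFD the values were 57.4, 52.5, 59.4, 60.4 and 69.4 CPM in controls and 33.6, 25.4, 30.8, 29.9 and 30.7 CPM in C-3BO mice. On both diets all C-3BO mice lay below all controls. The log2 fold change was -1.01 (SE 0.14, edgeR adjusted p = 4.8e-07) on chow and -0.99 (SE 0.14, edgeR adjusted p = 4.5e-07) on HFD. Over the 8 groups, the order of the mean levels placed both C-3BO groups lowest (28.9 ± 4.68 and 30.1 ± 2.97 CPM, SD, n = 5) and both control groups highest (58.0 ± 6.44 and 59.8 ± 6.17 CPM), and within each of these pairs the means differed by less than 1 SD.

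With CL, *Ddit3* showed no such fall. Chow saline mice had 41.8, 55.8, 43.6, 33.2 and 47.5 CPM and chow CL mice 59.4, 48.7, 36.0, 40.3 and 60.8 CPM, which overlapped. The log2 fold change was 0.14 (95% interval -0.11 to 0.40, edgeR adjusted p = 0.51) on chow and -0.32 (interval -0.59 to -0.05, adjusted p = 0.091) on HFD. Without replicate 5 of chow CL mice the value on chow was 0.05. On HFD this passed the threshold with library totals (-0.46, adjusted p = 0.023), with the 10 libraries alone (-0.34, adjusted p = 0.032) and without replicate 4 of HFD CL mice (-0.40, adjusted p = 0.049).

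*Sesn2* (chr4:132048722-132066371, minus strand) encodes sestrin 2, a leucine sensor that holds back mTORC1. Chow control mice had 7.93, 7.90, 5.15, 5.63 and 9.72 CPM and chow C-3BO mice 17.6, 25.7, 19.2, 30.9 and 21.0 CPM. The groups were far apart, with a log2 fold change of 1.67 (SE 0.26, edgeR adjusted p = 5.1e-06), which is 3.18-fold. On HFD the controls had 14.6, 13.6, 25.1, 17.3 and 15.5 CPM and the C-3BO mice 30.1, 32.2, 25.9, 22.0 and 43.4 CPM. Replicate 3 of the controls overlapped the C-3BO mice here, and the log2 fold change was 0.83 (SE 0.24, edgeR adjusted p = 0.0068). For *Sesn2*, the HFD value minus the chow value of this effect was -0.84 (SE 0.35, edgeR adjusted p = 0.22).

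In injected mice *Sesn2* was 38.0, 21.5, 9.66, 19.5 and 23.3 CPM with saline and 18.2, 9.61, 16.6, 17.4 and 23.8 CPM with CL on chow. These groups overlapped, and the log2 fold change was -0.38 (95% interval -0.84 to 0.09, edgeR adjusted p = 0.31), or -0.52 without replicate 5 of chow CL mice (adjusted p = 0.16). On HFD it was 0.21 (interval -0.31 to 0.73, adjusted p = 0.62). The untreated chow mice of the cohorts did not lie at a common level, since *Sesn2* was 7.26 ± 1.87 CPM (SD, n = 5) in chow controls and 22.4 ± 10.2 CPM in chow saline mice, beside 22.9 ± 5.39 CPM in chow C-3BO mice. These cohorts also differ in injections and age, and their untreated groups were not tested against each other.

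The difference between the C-3BO effect and the CL effect was tested in the same model. On chow, 1 member was higher and 1 lower in this difference, while 6.24% of all genes were called. It was -1.16 (SE 0.19, edgeR adjusted p = 1.5e-04) for *Ddit3* and 2.05 (SE 0.35, edgeR adjusted p = 2.9e-04) for *Sesn2*, and -1.07 and 2.19 without replicate 5 of chow CL mice, both still called. On HFD 0 of 10 members were called by edgeR, against 1.80% of all genes, 1 member had an unadjusted p under 0.05, and DESeq2 called 1. For *Ddit3* the difference on HFD was -0.67 (SE 0.19, edgeR adjusted p = 0.061). For *Asns* this difference was -0.38 (95% interval -0.69 to -0.08, edgeR adjusted p = 0.14) on chow and -0.15 (interval -0.46 to 0.16, adjusted p = 0.77) on HFD. No member's treatment effect was called as different between the diets: for C-3BO this was 0 of 10 members against 2.09% of all genes, with 2 at an unadjusted p under 0.05 and 0 by DESeq2, and for CL 0 of 10 against 0.0151%, with 1 at an unadjusted p under 0.05 and 0 by DESeq2.

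*Atf4* (chr15:80085614-80087975, plus strand), the transcription factor at the centre of the response, is set largely by translation, so its mRNA need not follow its activity. On chow, *Atf4* was 91.4, 89.6, 141, 114 and 106 CPM in control mice and 86.8, 81.1, 107, 62.7 and 95.2 CPM in C-3BO mice. On HFD it was 121, 92.8, 105, 123 and 123 CPM in controls and 125, 115, 139, 129 and 115 CPM in C-3BO mice. The groups overlapped on both diets, and the log2 fold changes of -0.33 (95% interval -0.68 to 0.02) and 0.14 (interval -0.21 to 0.49) were not called (edgeR adjusted p = 0.16 and 0.57). In chow saline mice *Atf4* was 146, 136, 155, 85.6 and 76.6 CPM, and in chow CL mice it was 98.5, 74.7, 97.0, 81.5 and 181 CPM. The highest of these CL mice was replicate 5. With all 5 mice the log2 fold change was -0.17 (SE 0.18, edgeR adjusted p = 0.57), and without replicate 5 it was -0.45 and was called (adjusted p = 0.044).

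*Atf5* (chr7:52067626-52071028, minus strand), a relative of ATF4 tied to the mitochondrial unfolded protein response, showed the largest spread between mice of the transcription factors. Chow saline mice had 391, 197, 602, 548 and 204 CPM, and chow CL mice had 305, 223, 196, 202 and 445 CPM. Replicate 5 was again the highest CL mouse, and the log2 fold change went from -0.50 (adjusted p = 0.17) with all mice to -0.75 (adjusted p = 0.032) without it, both by edgeR. In C-3BO mice the log2 fold change of *Atf5* was -0.04 (95% interval -0.52 to 0.44) on chow and -0.06 (interval -0.55 to 0.42) on HFD, with edgeR adjusted p = 0.92 and 0.87.

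*Trib3* (chr2:152163161-152169796, minus strand), a pseudokinase that ATF4 and CHOP induce and that feeds back on them, behaved likewise with CL on chow. Chow saline mice had 15.6, 15.8, 29.3, 25.1 and 36.2 CPM and chow CL mice 21.4, 12.9, 14.4, 9.66 and 36.3 CPM, where the last value is replicate 5. Without it the log2 fold change went from -0.37 (edgeR adjusted p = 0.38) to -0.75 (adjusted p = 0.035). In C-3BO mice the log2 fold change of *Trib3* was -0.49 on chow and -0.51 on HFD, with 95% intervals of -1.03 to 0.05 and -1.07 to 0.05, and neither was called. *Trib3*, *Atf4* and *Atf5* thus passed the test for CL on chow only when the mouse with saline-like *Ucp1* was left out, and the count of called members went from 3 to 5, with *Chac1* no longer among them (adjusted p = 0.057). The 5 chow saline mice had 1267 to 1865 CPM of *Ucp1*, which includes the 1644 CPM of that mouse, but its *Asns* (85.8 CPM) and *Phgdh* (3.11 CPM) lay outside the saline range. With CL on HFD, the log2 fold changes of *Trib3*, *Atf4* and *Atf5* were -0.37, -0.19 and -0.21. Their groups overlapped and none was called (edgeR adjusted p = 0.44, 0.50 and 0.59).

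*Chac1* (chr2:119176978-119180062, plus strand), which encodes an enzyme that degrades glutathione, was the scarcest member. Chow saline mice had 4.32, 1.78, 2.77, 2.23 and 3.66 CPM and chow CL mice 1.28, 1.30, 1.20, 1.37 and 1.29 CPM. All CL mice lay below all saline mice, and the log2 fold change was -1.19 (SE 0.41, edgeR adjusted p = 0.042). The call was lost without any 1 of 8 of these 10 mice, where the adjusted p lay between 0.057 and 0.11. On HFD the groups overlapped, with a log2 fold change of -0.06 (95% interval -0.99 to 0.87, edgeR adjusted p = 0.95), which leaves a wide range. Skeletal muscle markers moved with CL on chow too: 7 of 8 were lower, and their summed level was 8.76 to 2196 CPM with saline and 9.93 to 121 CPM with CL. Markers of other cells moved in the other treatment comparisons as well. In C-3BO mice 2 of 5 endothelial markers were lower on chow and 3 of 5 on HFD, with sums of 452 to 894 CPM against 695 to 1036 CPM and of 1146 to 1304 CPM against 1365 to 1775 CPM. The 8 muscle markers had a sum of 339 to 3271 CPM in C-3BO mice on chow against 656 to 8245 CPM in controls. All 11 liver markers tested were higher in C-3BO mice on HFD, where replicates 4 and 5 alone had a high sum (448 and 423 CPM). These 2 low-total libraries also held epididymis transcripts, with a summed marker level of 64.6 and 60.6 CPM. Of 8 macrophage markers, 1 was lower in C-3BO mice on HFD and 3 were lower with CL on HFD, at 146 to 447 CPM in sum against 347 to 851 CPM with saline, and 2 of 5 endothelial markers were higher with CL on HFD. The sum of 8 brown adipocyte markers, *Ucp1* among them, was higher in C-3BO mice on both diets. It was 20873 to 29056 CPM against 13704.5 to 17894 CPM on chow and 30656.5 to 35546 CPM against 16664 to 30004.5 CPM on HFD. With CL it was 18147.5 to 27268 CPM against 14680.5 to 19958 CPM on chow, which overlapped, and 23836 to 30166 CPM against 16177 to 20403.5 CPM on HFD. *Ucp1* alone was a large part of these sums. On HFD it was 12339 to 15797.5 CPM in C-3BO mice against 2573 to 9442 CPM in controls. With CL on HFD it was 8324 to 11261 CPM against 2310 to 3845 CPM with saline. These sums therefore do not show how the other brown adipocyte markers moved. The part of any of these cells in the members' values was not tested.

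In control mice *Sesn2* and *Phgdh* were higher and *Chac1* and *Mthfd2* lower on HFD than on chow, which is 2 higher and 2 lower members against 32.9% of all genes. Only *Sesn2* had groups without overlap, against 18.9% of all genes. *Sesn2* went from 5.15 to 9.72 CPM on chow to 13.6 to 25.1 CPM on HFD without overlap, a log2 fold change of 1.26 (SE 0.26, edgeR adjusted p = 1.9e-04). *Phgdh* went from 3.04 to 8.18 CPM on chow to 7.84 to 13.2 CPM on HFD, which overlapped in 1 mouse of each diet, and the log2 fold change was 0.80 (SE 0.28, adjusted p = 0.027). It missed the threshold without replicate 2 of chow control mice (0.63, adjusted p = 0.095) or replicates 1 or 2 of HFD control mice (0.75 and 0.73, adjusted p = 0.055 and 0.061). *Chac1* (-0.98, SE 0.38, edgeR adjusted p = 0.042) and *Mthfd2* (-0.76, SE 0.27, adjusted p = 0.027) overlapped between the diets and lost their calls in 11 and 5 of 16 alternatives. Without replicate 3 of chow control mice, the one at 11.9 CPM, the log2 fold change of *Mthfd2* was -0.29 (adjusted p = 0.38).

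Markers of other tissue components also differed between the diets. In control mice all 8 skeletal muscle markers were lower on HFD, with a summed level of 4.75 to 187 CPM against 656 to 8245 CPM on chow. All 5 endothelial markers were higher, at 1365 to 1775 CPM against 695 to 1036 CPM. In C-3BO mice the same 8 muscle markers were lower (4.53 to 63.5 CPM against 339 to 3271 CPM), and 5 of 5 endothelial and 10 of 11 liver markers were higher. In injected mice 10 of 11 liver markers were higher on HFD with saline and with CL. High liver sums lay only in the 12 low-total libraries, which also held epididymis transcripts, so the liver calls cannot be told apart from that set. In saline mice 6 of 8 macrophage markers were higher and 1 lower (347 to 851 CPM against 177 to 350.2 CPM in sum), with 2 of 5 endothelial markers higher, and in CL mice 5 of 5 endothelial and 1 of 8 macrophage markers were higher. Their part in the diet values was not tested.

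In C-3BO mice, 1 member was higher and 0 were lower on HFD than on chow, while 25.7% of all genes were called. This was *Atf4*, at 115 to 139 CPM on HFD and 62.7 to 107 CPM on chow, without overlap (log2 fold change 0.53, SE 0.18, edgeR adjusted p = 0.027). The call was lost when both low-total C-3BO libraries were left out (0.55, adjusted p = 0.065), without replicates 2 or 4 of chow C-3BO mice (0.51 and 0.43) and without replicates 3 or 4 of HFD C-3BO mice (0.49 in both). The direction was the same each time. *Atf5* also did not overlap between the diets (169 to 203 CPM on HFD, 235 to 332 CPM on chow), but its log2 fold change of -0.52 was not called (edgeR adjusted p = 0.12). Groups without overlap were thus found for 2 members, against 16.0% of all genes.

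In saline mice 0 members were higher and 2 lower on HFD, against 15.5% of all genes, and in CL mice 1 was higher and 2 lower, against 23.6%. In each of these comparisons 1 member had groups without overlap, against 9.03% and 18.2% of all genes. *Trib3* was 6.02 to 13.8 CPM in HFD saline mice and 15.6 to 36.2 CPM in chow saline mice, a log2 fold change of -1.12 (SE 0.29, edgeR adjusted p = 0.0070). *Atf5* was 144 to 209 CPM and 197 to 602 CPM in the same mice, with -1.08 (SE 0.25, edgeR adjusted p = 0.0030). In CL mice the log2 fold change was -1.11 for *Trib3* and -0.79 for *Atf5* (edgeR adjusted p = 0.0050 and 0.017), and without replicate 5 of chow CL mice both missed the threshold (-0.74 and -0.55, adjusted p = 0.051 and 0.11). *Phgdh* was higher on HFD in CL mice by 1.12 (SE 0.35, edgeR adjusted p = 0.016), and by 1.36 without that mouse. Every library of these HFD groups is among the 12 low-total libraries that held *Alb*, so diet and library set cannot be told apart here. In the first cohort, where 8 of 10 HFD libraries lay outside that set, *Trib3* and *Atf5* had values of -0.43 and -0.50 in control mice and were not called (edgeR adjusted p = 0.23 and 0.12).

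From mouse to mouse within groups, the members varied largely apart from each other. After the group means were taken out, Pearson's r of log2 CPM over 40 libraries had a median of 0.06 over the 45 pairs, and 19 pairs were below 0. The 3 pairs above 0.5 were *Psat1* with *Phgdh* (0.61), *Ddit3* with *Phgdh* (0.55) and *Atf5* with *Mthfd2* (0.55). The lowest was *Mthfd2* with *Sesn2* (-0.37). *Atf4* reached 0.46 with *Atf5* and 0.44 with *Ddit3*, but -0.13 with *Asns* and -0.02 with *Trib3*. *Psat1* and *Phgdh*, neighbours in serine synthesis, thus varied together between mice although only *Phgdh* was called with treatment. These are descriptions with no test, and the points share library depth and tissue makeup. Some members rest on few counts, with a median per library of 16.5 for *Chac1*, 33.5 for *Mthfd2* and 39 for *Phgdh*. Counting error can weaken r for such genes, so a low r does not show that they vary independently.

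**Figure D3:**
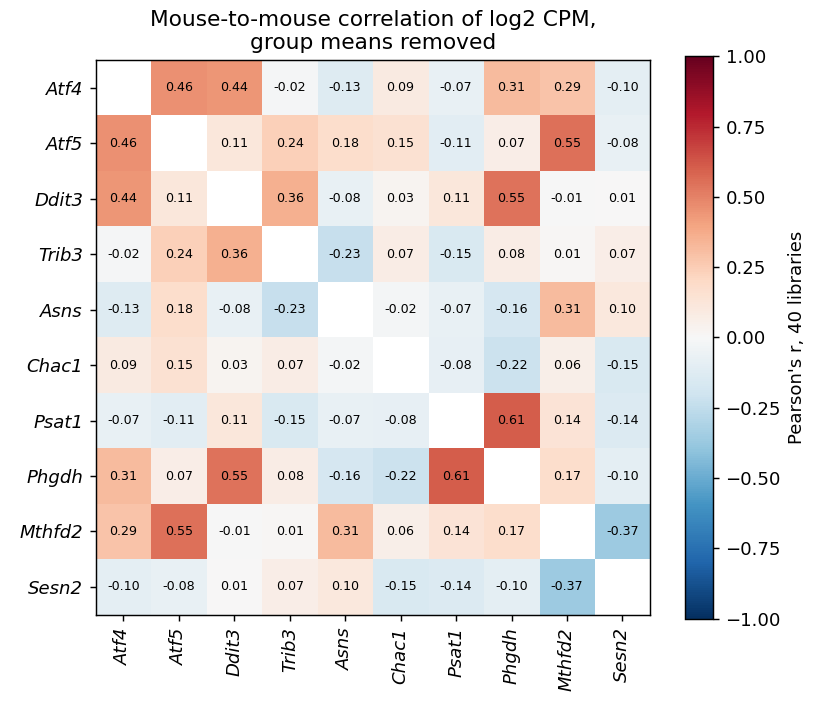
Pearson's r between members for log2 CPM over 40 libraries with the mean of each group subtracted, on a colour scale from -1 to 1. Most cells are near 0 (median 0.06), and *Psat1* with *Phgdh* is the strongest pair at 0.61.

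The genes most like the members' mean level over all 40 libraries were *Prmt5*, *Lmo1*, *Sqstm1*, *Nupr1*, *Hspb1*, *Zfp444*, *Mafg* and *Cct7*, with Pearson's r from 0.64 to 0.68, and from 0.36 to 0.70 with the group means removed. *Asns* and *Sesn2* had r of -0.29 and -0.22 with that mean, and of 0.13 and -0.01 with the group means removed, the lowest of the 10 members on both measures.

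The wider pathway was described with 112 genes in 9 lists, of which 109 were tested. Of these, 14 were higher and 9 lower with CL on chow (21.1%), 20 and 10 with CL on HFD (27.5%), 21 and 14 in C-3BO mice on chow (32.1%), and 29 and 10 in C-3BO mice on HFD (35.8%). Without replicate 5 of chow CL mice, 14 of 110 genes were higher and 12 lower with CL on chow. Of the wider genes named below or above with a call for CL on chow, *Psph* (1.08), *Gars* (0.71), *Hspa9* (0.58), *Shmt1* (0.99), *Cebpb* (-0.86), *Atf3* (-1.85), *Xbp1* (-0.80) and *Pdia4* (-0.48) were still called without this mouse. These shares, and the counts of each list below, can be read beside the 15.3%, 23.5%, 31.6% and 34.8% of all genes called in either direction.

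Mitochondrial stress sensors, chaperones and proteases formed the list with the most higher calls. Of its 13 tested genes, 7 were higher and 0 lower with CL on chow, 7 and 1 with CL on HFD, 7 and 0 in C-3BO mice on chow, and 9 and 0 in C-3BO mice on HFD. Of all genes, 15.3%, 23.5%, 31.6% and 34.8% were called in either direction, and 59.9%, 54.0%, 49.8% and 55.3% of those calls were higher. With libraries scaled by their totals alone, the median of all genes shifted by -0.14, -0.14, -0.20 and -0.17. The counts of this list under that scaling are not given here. Its median log2 fold change was 0.35, 0.34, 0.26 and 0.46 in that order, against medians of all genes between -0.03 and -0.01. *Hspa9*, the mitochondrial HSP70, rose by 0.57, 0.78, 0.43 and 0.71 on the log2 scale (SE 0.10 in each, edgeR adjusted p = 7.7e-05, 2.1e-07, 7.0e-04 and 4.7e-07). *Htra2*, a protease named here after its value was seen, was the 1 lower gene, with -0.47 for CL on HFD (SE 0.13, edgeR adjusted p = 0.0089).

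Aminoacyl-tRNA synthetases include several ATF4 targets. Of 13 genes tested, 1 was higher with CL on chow, 3 with CL on HFD, 2 with 1 lower in C-3BO mice on chow and 3 in C-3BO mice on HFD. In the same order, 15.3%, 23.5%, 31.6% and 34.8% of all genes were called in either direction. *Gars*, the glycyl-tRNA synthetase, was higher in all 4, with log2 fold changes of 0.67, 0.84, 0.56 and 0.95 (SE 0.12 in each) and no overlap between groups. *Asns* and *Gars* thus shared the direction and the lack of overlap within each of the 4 comparisons. Across the cohorts *Gars* overlapped, with up to 175 CPM in chow control mice and down to 154 CPM in chow CL mice.

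Of the 9 amino acid transporters tested, 0 were called with CL on chow, 2 were lower with CL on HFD, 2 were lower in C-3BO mice on chow, and 1 was higher and 2 were lower in C-3BO mice on HFD. Among 13 other genes of serine, glycine, one-carbon, proline and transsulfuration metabolism, 3 were higher with CL on chow, 2 were higher and 1 lower with CL on HFD, 1 was higher and 2 lower in C-3BO mice on chow, and 3 were higher and 1 lower in C-3BO mice on HFD. *Shmt1*, the cytosolic serine hydroxymethyltransferase, rose with CL on chow by 1.03 (SE 0.13, edgeR adjusted p = 8.8e-07). *Aldh1l2*, a mitochondrial folate enzyme that ATF4 is known to induce, fell by 1.88 (SE 0.34, adjusted p = 6.3e-05) in C-3BO mice on chow and by 1.43 with CL on HFD (SE 0.35, adjusted p = 0.0026), from levels of 4.47 and 5.77 CPM. It was also lower in C-3BO mice on HFD (0.546 against 1.65 CPM, adjusted p = 0.0061 by edgeR), but not when both low-total C-3BO libraries were left out (-1.06, adjusted p = 0.062), and its value with CL on chow was -0.52, which was not called.

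**Figure D4:**
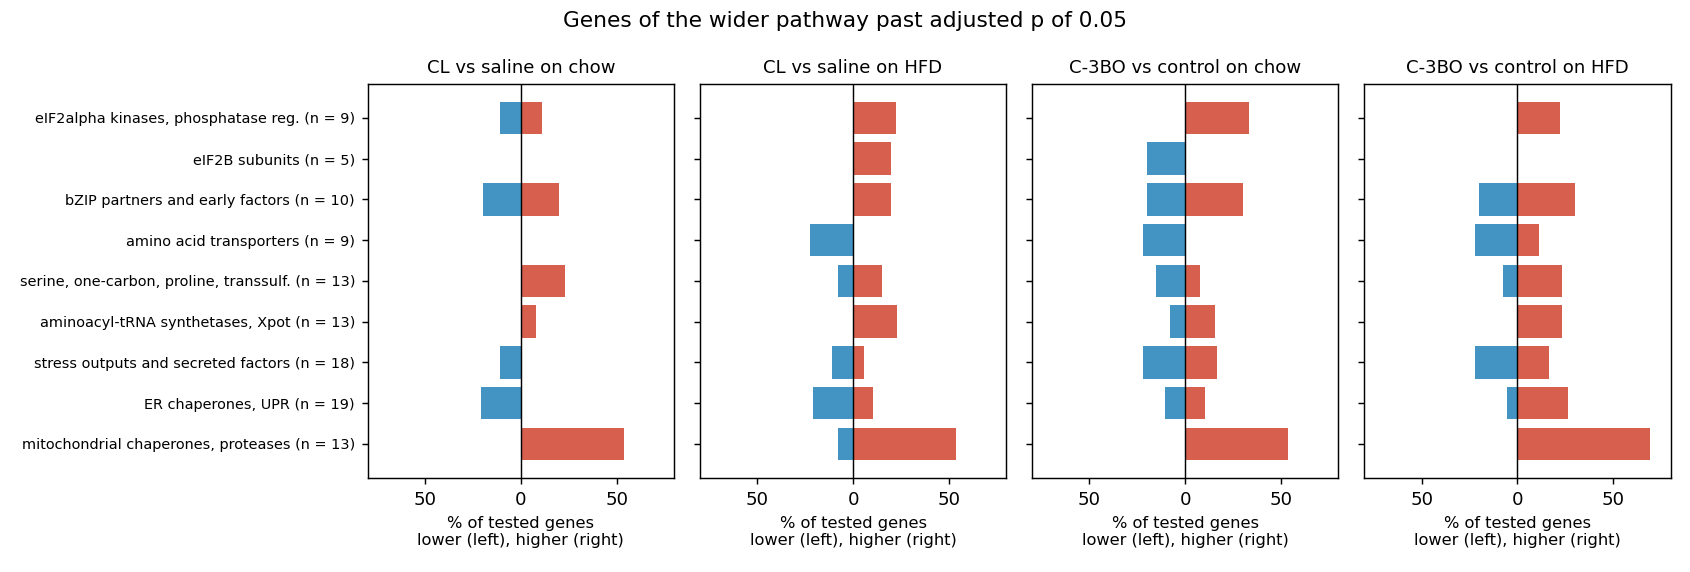
Share of the tested genes of each wider list that were called lower (left) or higher (right) at an adjusted p under 0.05, for the 4 treatment comparisons. The mitochondrial list reaches 7 to 9 of 13 genes higher, and the other lists hold higher and lower calls in varying numbers.

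Upstream of ATF4, the list of eIF2alpha kinases and phosphatase regulators (9 genes) had 1 higher and 1 lower with CL on chow, 2 and 0 with CL on HFD, 3 and 0 in C-3BO mice on chow, and 2 and 0 in C-3BO mice on HFD. *Eif2ak1*, the heme-regulated kinase, rose in C-3BO mice by 0.40 on chow and 0.34 on HFD and with CL on HFD by 0.30 (edgeR adjusted p = 8.1e-04, 0.0035 and 0.018). *Eif2ak2*, the kinase that senses double-stranded RNA, rose with CL on HFD by 0.39 (SE 0.12, adjusted p = 0.018 by edgeR). When libraries were scaled by their totals alone, these calls were lost for CL on HFD (*Eif2ak1* 0.16, *Eif2ak2* 0.25) and for *Eif2ak1* in C-3BO mice on HFD (0.17). Both calls with CL on HFD were also lost without replicate 2 of HFD CL mice or replicate 3 of HFD saline mice, and that of *Eif2ak1* without replicate 2 of HFD saline mice, at adjusted p of 0.054 to 0.070 by edgeR. *Eif2ak3*, the kinase of the endoplasmic reticulum (ER), and *Eif2ak4*, the amino acid sensor, were called in 0 of the 4 treatment comparisons. *Ppp1r15b*, which directs a phosphatase to eIF2alpha, rose in C-3BO mice by 0.97 on chow and 0.67 on HFD (SE 0.12 in both). Phosphorylation and protein were not measured in these data. Of the 5 eIF2B subunits, 1 was higher with CL on HFD and 1 was lower in C-3BO mice on chow, and 0 were called in the other 2 treatment comparisons.

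Among the bZIP partners and early factors (10 genes), C-3BO mice had 3 higher and 2 lower on each diet, CL on chow 2 and 2, and CL on HFD 2 and 0. *Cebpb*, a partner of ATF4 at C/EBP-ATF elements and a cAMP-responsive factor, rose in C-3BO mice by 1.38 (SE 0.26) on chow and 1.68 (SE 0.26) on HFD, and it fell with CL on chow by 0.79 (SE 0.25, edgeR adjusted p = 0.028). With CL on HFD its value was 0.03 (adjusted p = 0.96 by edgeR), and the call on chow was lost without replicate 1 of chow saline mice (-0.55) and without replicates 1 or 2 of chow CL mice (-0.75 and -0.70). *Atf3*, an early stress factor, fell with CL on chow by 1.58 (SE 0.46, edgeR adjusted p = 0.016) and in C-3BO mice on chow by 1.41 (SE 0.52, adjusted p = 0.036), and its values on HFD were -1.05 and -0.28, which were not called. With CL on chow the groups overlapped, with replicate 1 of chow saline mice at 24.7 CPM against 2.03 to 6.57 CPM in the other 4 and 1.30 to 4.57 CPM in CL mice. Without this mouse *Atf3* had a value of -0.62 (edgeR adjusted p = 0.33), without replicate 4 of chow CL mice it missed the threshold too (-1.39, adjusted p = 0.060), and the call in C-3BO mice was lost without any 1 of 7 of the 10 mice (adjusted p up to 0.088).

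Stress outputs and secreted factors (18 genes tested) had 0 higher and 2 lower with CL on chow, 1 and 2 with CL on HFD, and 3 and 4 in C-3BO mice on each diet. *Nupr1*, a small stress-induced chromatin protein, fell in C-3BO mice by 1.11 and 1.13 (SE 0.17 and 0.18) and with CL on HFD by 0.82 (SE 0.18). *Ddit4*, an inhibitor of mTORC1, was called in 0 of the 4 treatment comparisons and rose on HFD in all 4 diet comparisons, by 1.40 in control, 1.39 in C-3BO, 1.00 in saline and 0.75 in CL mice. The last was lost without replicate 5 of chow CL mice (0.72, edgeR adjusted p = 0.085) and without any 1 of 6 others of these 10 mice. *Gdf15*, a secreted stress hormone, had group means between 0.296 and 2.79 CPM and was called in 0 of these 8 comparisons. *Fgf21*, which is known as a batokine downstream of ATF4, was too low to be tested, with group means between 0.156 and 0.913 CPM.

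ER chaperones and genes of the unfolded protein response (19 genes) had 0 higher and 4 lower with CL on chow, 2 and 4 with CL on HFD, 2 and 2 in C-3BO mice on chow, and 5 and 1 in C-3BO mice on HFD. *Pdia4*, a disulfide isomerase of the ER, fell in all 4 treatment comparisons, by 0.44, 0.44, 0.37 and 0.59 (SE 0.09 in each) in the order given. *Xbp1* fell by 0.76 with CL on chow, 0.44 with CL on HFD and 0.65 in C-3BO mice on chow, and had a value of 0.14 in C-3BO mice on HFD (edgeR adjusted p = 0.34). Other genes of this list rose in C-3BO mice. On HFD these included *Dnajb9* (0.77), *Calr* (0.37) and *Hspa5* (0.35), with edgeR adjusted p = 1.2e-04, 0.0028 and 0.0011. On chow *Canx* rose by 0.38 (edgeR adjusted p = 8.8e-04). The list thus had no single direction in C-3BO mice.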

How the data were processed

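RNA-seq libraries of BAT from 40 mice (TruSeq kit, strand use not given in the sources used here) were aligned by the authors with STAR and summarised with HOMER on mm9, per the labels, and the deposited table holds raw counts per gene over exons. Reads of overlapping or near-identical genes may therefore be shared. Counts were analysed with edgeR 4.0.16 in R 4.3.3. Genes were kept by filterByExpr with a minimum count of 10, which left 13277 of 20295 genes. TMM factors, 1 mean per group and the quasi-likelihood test were used in a single fit of 40 libraries, and p-values were adjusted by Benjamini-Hochberg over all genes tested. SEs were taken from the fold change and its F statistic, and 95% intervals as 1.96 SE either side. Two-sided exact permutation tests used log2 CPM with a prior count of 2. Library totals ranged from 849126 to 15260516 counts. Alternatives were DESeq2 1.42.0, library totals or RLE factors in place of TMM, other count filters, the compared groups alone, a replicate block, and leaving out libraries. The script was tested on simulated data. Named genes were the 10 members, up to 4 called genes without overlap per wider list and comparison, the eIF2alpha kinases and a few known outputs, and the 8 genes most like the members' mean. The members and lists were chosen with earlier results of these data known. File starts were shifted by 1 to browser coordinates, and promoters were read from the mm9 genome. For the wider-pathway genes named, fits without each library and with libraries scaled by their totals were added after seeing the data.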

Additional observations from a re-analysis of the deposited data

Results flagged for a closer look

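In 5 of 80 combinations of a member and a group, 1 mouse stood apart from the other 4 by Dixon's criterion (gap over range above 0.710), while chance gives about 1 in 20. *Atf4* was 181.1 CPM in replicate 5 of chow CL mice, against 74.7 to 98.5 CPM in the others, and this is the mouse whose *Ucp1* lay within the saline range. *Mthfd2* was 11.9 CPM in replicate 3 of chow control mice, against 3.04 to 4.79 CPM, and 8.49 CPM in replicate 3 of chow saline mice, against 3.46 to 4.87 CPM. *Trib3* was 20.6 CPM in replicate 1 of chow C-3BO mice, against 10.9 to 13.2 CPM. *Sesn2* was 21.95 CPM in replicate 4 of HFD CL mice, against 15.4 to 17.0 CPM.

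The effects of C-3BO and CL on chow differed for *Ddit3* by -1.16 (SE 0.19, edgeR adjusted p = 1.5e-04) and for *Sesn2* by 2.05 (SE 0.35, adjusted p = 2.9e-04) on the log2 scale. C-3BO and CL mice came from separate cohorts, and genotype and injection cannot be told apart from the cohort here. CL mice were also sampled the day after their last dose, whereas the *Gpr3* transgene was on from early in life.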

How the results depend on the processing

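Of 25 called member values, 16 kept their direction and call in every alternative run, among them *Asns* and *Phgdh* with CL and *Ddit3* in C-3BO mice. Of 33 uncalled values described, 14 stayed uncalled with the same direction. With at least 10 counts in all libraries, fewer members could be tested, and the members called were 1 and 1 for CL on chow and HFD, 2 and 2 for C-3BO on chow and HFD, 0, 1 and 1 for diet in control, saline and CL mice, and 1 for C-3BO minus CL on chow. When libraries were scaled by their totals alone, the median of all genes shifted by -0.20 to 0.18, the members called were 7 for C-3BO on chow (1 higher, 6 lower) and 2 and 3 for diet in control and C-3BO mice, and the log2 fold change changed sign for uncalled *Ddit3* (-0.0070) and *Mthfd2* (-0.040) with CL on chow, *Psat1* (-0.0018) and *Mthfd2* (-0.056) with CL on HFD, *Atf4* (-0.026) in C-3BO mice on HFD and *Asns* (0.011) on HFD in controls. The share of calls that were higher then went from 59.9% to 26.6% and from 54.0% to 27.9% for CL on chow and HFD, from 49.8% to 20.2% and from 55.3% to 30.1% for C-3BO, and from 46.8% to 71.3%, 52.6% to 81.7%, 48.1% to 84.7% and 46.1% to 79.7% for diet in control, C-3BO, saline and CL mice. With the compared groups alone, 2 and 2 members were called for diet in control and C-3BO mice, and 1 for C-3BO minus CL on HFD, as with DESeq2 (1). Without both low-total C-3BO libraries, 0 were called for diet in C-3BO mice. The cause of these changes was not tested.

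Leaving out 1 mouse at a time gave 2 to 5 and 2 to 3 calls for CL on chow and HFD, 3 to 5 and 4 to 4 for C-3BO on chow and HFD, 1 to 5, 0 to 2, 2 to 3 and 1 to 4 for diet in control, C-3BO, saline and CL mice, 0 to 0 for both differences between diets, and 2 to 2 and 0 to 1 for C-3BO minus CL on chow and HFD. Values that changed sign in this way were *Mthfd2* (-0.017 to 0.36) with CL on chow, *Chac1* (-0.41 to 0.20) and *Mthfd2* (-0.023 to 0.19) with CL on HFD, *Atf5* (-0.13 to 0.22 on chow, -0.19 to 0.091 on HFD) in C-3BO mice and *Ddit3* (-0.026 to 0.088) on HFD in controls. In the paired fit with a replicate block, 2, 2, 4 and 4 members were called for CL and C-3BO on chow and HFD and 3, 1, 2 and 3 for diet, and *Chac1* missed the threshold with CL on chow (-1.20) and on HFD in controls (-0.96). Same-numbered mice did not have r above 0.1 in every pair of any comparison (mean r -0.14 to 0.17), and the labels give no shared litter or day, so the numbers were not taken as pairs. For C-3BO on chow, 3 of 5 pairs were above 0.1 (highest 0.44, mean 0.17 against -0.04 for other pairs) and 3 mice correlated best with their own number, as did 3 for C-3BO on HFD, a hint from the data only. The median r among members was 0.06, and 0.04 with library totals.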
